A study of Mus musculus with 15 samples.

Results

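Kidney fibroblasts sorted 14 days after ureteral obstruction were set against kidney fibroblasts sorted 7 days after folic acid injury. The comparison used 6 of the 15 arrays of the study, the 3 obstruction arrays and the 3 folic acid day 7 arrays, and covered every gene that a probe set names alone. Where several probe sets named a gene, the one with the highest mean over the 15 arrays stood for it. Of 17097 genes measured in this way, 13523 were bright enough to be tested. All animals were adult C57BL/6 mice. In unilateral ureteral obstruction (UUO) the outflow of one kidney is blocked, and the cells were taken 14 days later. In the folic acid model the compound injures the tubules acutely, and cells were taken 3, 7 or 14 days later. The remaining 9 arrays were folic acid day 3, folic acid day 14 and uninjured kidney, with 3 arrays in each group, and they enter here as the source of a shared error estimate and as reference levels. The labels name the cells as fibroblasts positive for PDGFRa and isolated by flow cytometry, and the RNA was amplified from small inputs before hybridisation. Injury model and time after injury changed together between the groups compared, so that their parts cannot be told apart. Nothing in the labels ties the arrays to individual animals, and the p-values therefore measure the spread between arrays, which may be technical.

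Fibroblasts and pericytes lie between the tubules of the kidney and, after injury, turn into matrix-producing cells that express smooth muscle actin. Obstruction keeps the injury going and leads to progressive fibrosis, whereas tubules can repair after a single dose of folic acid. Macrophages and dendritic cells gather in the same interstitial space, clear debris and present antigen on MHC class II molecules.

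All values are log2 intensities as the authors normalized them, so that a difference of 1 is a doubling of the signal. Array medians lay between 4.93 and 5.06. Correlations over all probe sets were 0.949 to 0.951 within the obstruction group, 0.918 to 0.937 within folic acid day 7, and 0.914 to 0.954 between the groups. Folic acid day 7 array 3 correlated with the 3 obstruction arrays at 0.941 to 0.954, more closely than with arrays 1 and 2 of its own group (0.918 and 0.937). No 2 of the 6 arrays held the same values.

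The sorting marker itself separated no group. Pdgfra, the receptor the cells were selected on, read 4.96, 4.89 and 6.65 on the folic acid day 7 arrays and 6.54, 5.71 and 5.71 on the obstruction arrays, and it lay between 5.68 and 6.43 in uninjured kidney. The difference was 0.49 on the log2 scale (SE 0.59, adjusted p = 0.882, limma). On folic acid day 7 arrays 1 and 2 Pdgfra was near the array median of 4.96, which limits what can be measured. The second receptor of the family, Pdgfrb, read 9.42 to 10.46 after folic acid and 9.62 to 9.84 after obstruction, with overlapping groups. The mean over 19 fibroblast markers was 7.32 to 7.68 after folic acid and 7.78 to 7.91 after obstruction, both above the 5.42 to 5.74 of uninjured kidney. Markers of other cells were present in the same RNA. The mean over 30 macrophage and dendritic cell markers was 6.84 to 7.85 on the folic acid day 7 arrays and 5.62 to 5.85 on the obstruction arrays. As summed linear intensity this was 8660 to 15800 against 2390 to 2920. The mean was 5.18 to 5.29 in uninjured kidney, 5.53 to 5.77 at folic acid day 3 and 6.50 to 7.73 at folic acid day 14. The mean over 16 proximal tubule markers was 8.29, 6.66 and 5.27 on folic acid day 7 arrays 1, 2 and 3, and 5.20 to 5.56 after obstruction. The day 7 group thus ran from the level of the obstruction arrays to that of uninjured kidney (8.24 to 9.57). Lymphocyte markers were at 4.61 to 4.76 and 4.65 to 4.74, and neutrophil markers at 4.82 to 5.22 and 4.72 to 4.94. In bulk RNA of this kind, fewer cells of a type and less RNA per cell cannot be told apart.

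**Figure D1:**
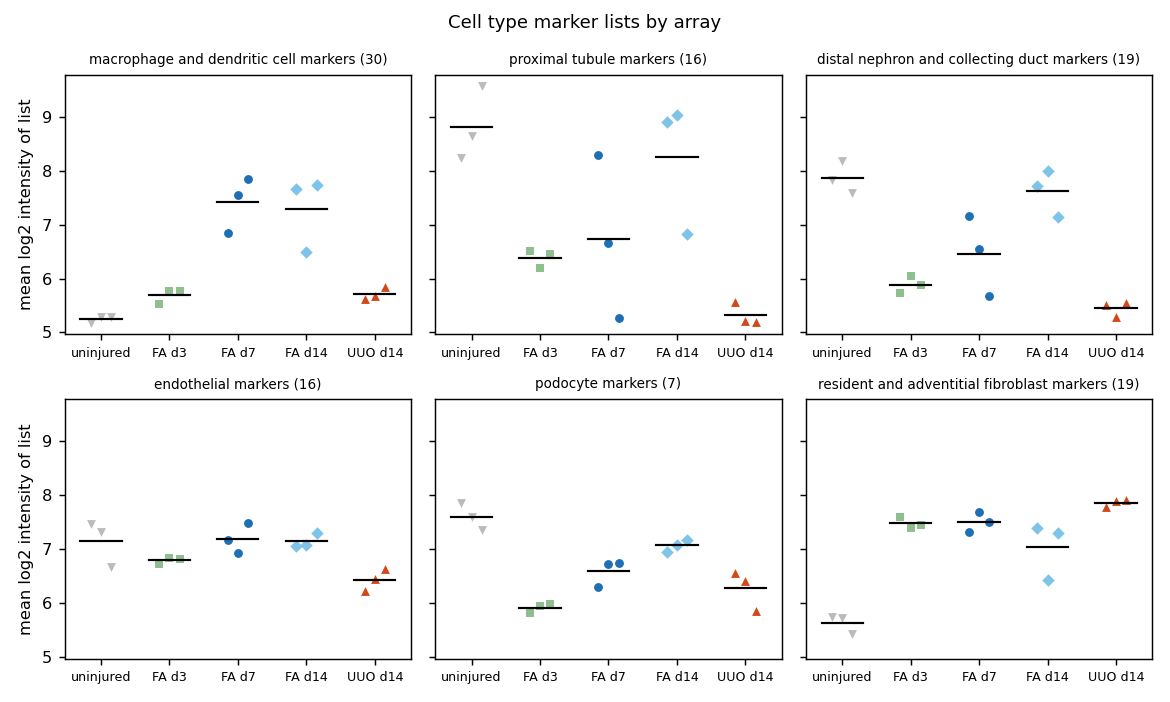
Mean log2 intensity of each cell type marker list (y axis) on each of the 15 arrays by group (x axis), with the number of measured markers in brackets. The macrophage and dendritic cell list is at 6.84 to 7.85 on the folic acid day 7 arrays and at 5.62 to 5.85 on the obstruction arrays, and the proximal tubule list spreads from 5.27 to 8.29 within folic acid day 7.

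Few genes were called between the 2 groups, and those called differed by much. By limma with 5 group means, 37 of the 13523 genes tested (0.274%) had an adjusted p under 0.05. Of these, 15 (0.111%) were higher after obstruction and 22 (0.163%) were lower, and each differed at least 2-fold. With 3 arrays in each group and a median SE of 0.27, small differences could hardly pass. The size of the called ones therefore partly reflects the threshold, and their number is no count of all differences. The higher genes included receptors for steroid and peptide hormones (Pgr, Oxtr, Mc2r), secreted and matrix proteins (Hmcn1, Igfbp2, Inhba) and the connexin Gja1. Of the 22 lower genes, 8 were in the lists of MHC class II or macrophage genes (H2-Ab1, H2-Eb1, H2-Aa, Cd74, Ctss, Tyrobp, Lyz2 and Laptm5), and Slc12a3 was in the distal nephron list. The 3 arrays of one group lay wholly above the 3 of the other for 767 genes higher after obstruction (5.67%) and 883 lower (6.53%). With 3 arrays in each group such separation is frequent without any difference, so these shares serve only as a background for the lists. An unadjusted p under 0.05 was reached by 1233 genes, and the median difference over all tested genes was -0.01.

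The calls depended on single arrays. With each of the 15 arrays left out in turn, between 13 and 108 genes were called, 6 to 30 of them higher and 5 to 78 lower. The count was 13 without obstruction array 2 and also without uninjured array 2, and 108 without folic acid day 7 array 3. It was 15 and 16 without uninjured arrays 1 and 3, 16 without folic acid day 7 array 2, and 18 without obstruction array 3. It was 24 without folic acid day 3 array 3. Of the 37 genes, 9 were called whichever array was left out, namely Pgr, Oxtr, Mc2r, Igfbp2, Tafa5, H2-Eb1, H2-Aa, Cd74 and Ly86. Mc2r and Pgr, as well as Clstn2 and F13a1 among the other called genes, were above the 40th percentile of their array (4.54 to 4.69) on 3 or more arrays only by counting the group in which they were high. For Mc2r and Pgr the omissions are therefore no sign of stability, which leaves 7 of the 9. The call of Hmcn1 ended in only 1 omission, that of obstruction array 2 (adjusted p = 0.0502), and those of Ctss and H2-Ab1 in 2, folic acid day 7 array 2 and obstruction array 2. Without folic acid day 14 array 1, 2 or 3 the count was 45, 43 and 53. The shared error pools groups of unequal spread. The median SD of a gene was 0.186 in uninjured kidney and 0.231 after obstruction. It was 0.242, 0.291 and 0.298 at folic acid days 3, 7 and 14. In the 6 arrays alone, no gene was called by limma, and 1014 had an unadjusted p under 0.05. These arrays leave fewer degrees of freedom and drop the spread of the other groups. The part of each was not tested.

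**Figure D2:**
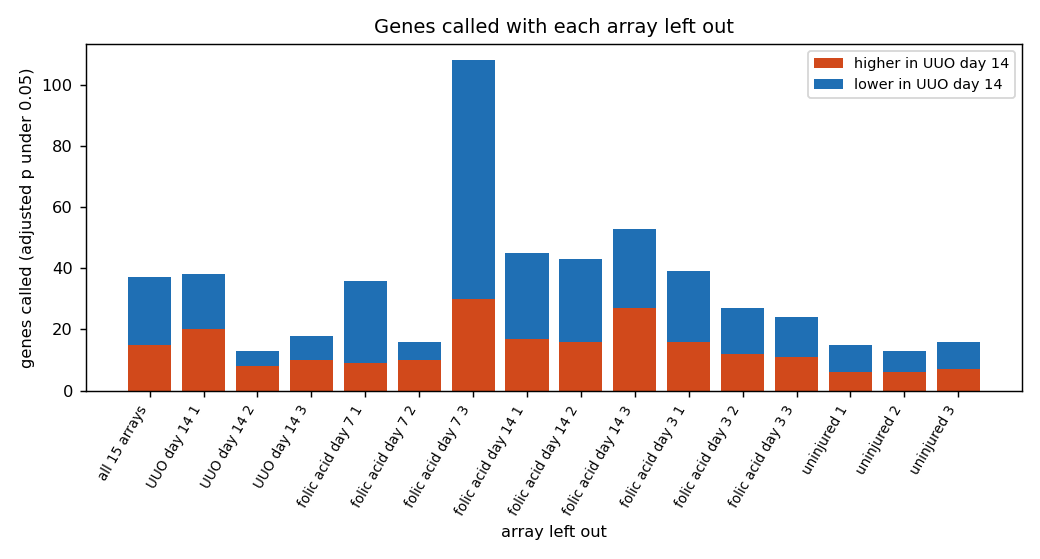
Number of genes called at an adjusted p under 0.05 (y axis), split into higher and lower after obstruction, with all 15 arrays and with each array left out (x axis). The total is 37 with all arrays, falls to 13 without obstruction array 2 or uninjured array 2, and rises to 108 without folic acid day 7 array 3.

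Of the higher genes, 3 encode hormone receptors, a class for which no list was tested. Pgr, the nuclear receptor for progesterone, read 5.26, 4.74 and 4.54 on the folic acid day 7 arrays and 7.22, 8.66 and 7.74 after obstruction. Its mean was 4.35 at folic acid day 14, 4.05 at day 3 and 4.25 in uninjured kidney, so only the obstruction arrays were high. The difference was 3.03 (SE 0.30, 8.15-fold, adjusted p = 0.00214, limma), and 3.03 with an adjusted p of 0.00291 when no gene was filtered out. Its size depended on the probe set, since the others of Pgr differed by 1.15 (adjusted p = 0.0909) and 0.40 (adjusted p = 0.398) and their mean by 1.53 (adjusted p = 0.00388). Oxtr, the G protein-coupled receptor for oxytocin, read 4.69, 4.75 and 4.54 after folic acid and 6.57, 6.73 and 7.97 after obstruction. All 12 arrays outside the obstruction group were within 4.50 to 4.98 for Oxtr. The difference was 2.43 (SE 0.28, adjusted p = 0.0037), whereas a second Oxtr probe set differed by 0.34 (adjusted p = 0.538) and the mean of both by 1.39 (adjusted p = 0.00388). Mc2r, the receptor for adrenocorticotropic hormone, was dim throughout, at 3.20, 3.96 and 3.42 against 4.72, 4.89 and 4.93. It exceeded the 40th percentile on the obstruction arrays alone and even there stayed just below the array medians. It was tested only because of those arrays, so its call with the filter is no support, and its size is uncertain. Without a filter the difference was 1.32 (adjusted p = 0.00822).

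Several higher genes encode secreted proteins, which were not tested as a list, and none of them is in a matrix list. Hmcn1 encodes hemicentin-1, a very large protein of the extracellular matrix. It read 3.46, 4.81 and 5.21 at folic acid day 7 and 7.91, 7.82 and 7.37 after obstruction. The difference of 3.21 (SE 0.43, 9.26-fold, adjusted p = 0.0101) had the greatest size among the higher genes. Hmcn1 was not peculiar to obstruction, since it read 6.26 to 7.00 at folic acid day 3 and had a mean of 4.29 at day 14. Igfbp2, which binds insulin-like growth factors outside the cell, read 5.53, 5.30 and 5.28 after folic acid and 8.49, 8.09 and 7.65 after obstruction (difference 2.71, SE 0.31, adjusted p = 0.0037). Its folic acid day 14 arrays lay in between, at 5.60 to 7.12. Inhba, the subunit shared by activin A and inhibin A, read 6.14, 7.26 and 6.34 against 8.52, 8.44 and 8.59 (difference 1.94, SE 0.32, adjusted p = 0.0304). The 3 obstruction arrays were nearly equal for Inhba and lay above all 12 others, which read 5.55 to 7.26. The Inhba call ended with 7 of the 15 arrays left out, among them every obstruction and every uninjured array, with an adjusted p of at most 0.104. A second Inhba probe set differed by -0.11 (adjusted p = 0.916), and the mean of both by 0.91 (adjusted p = 0.0424).

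Further secreted products were smaller in difference. Tafa5, a small chemokine-like secreted protein, read 5.06, 5.03 and 4.39 against 6.52, 6.21 and 7.21 (difference 1.82, adjusted p = 0.0101), with 0.23 on a second probe set (adjusted p = 0.785) and 1.02 for their mean (adjusted p = 0.0241). Pamr1, a secreted protein with a protease-like domain, differed by 1.77 (adjusted p = 0.0321), and its call ended in 11 omissions. Cpxm2, a carboxypeptidase-like protein, differed by 1.41 (adjusted p = 0.0296). A second probe set of Cpxm2 differed by 3.22 (adjusted p = 0.00613 among all probe sets), so its size depends on the probe set. Cfhr2, a complement factor H-related gene of a family with closely similar copies, read 4.68, 4.40 and 5.04 against 5.44, 6.28 and 6.06 (difference 1.22, adjusted p = 0.0313), and which copies its probes read is uncertain. The mean of its probe sets differed by 0.64 (adjusted p = 0.102).

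**Figure D3:**
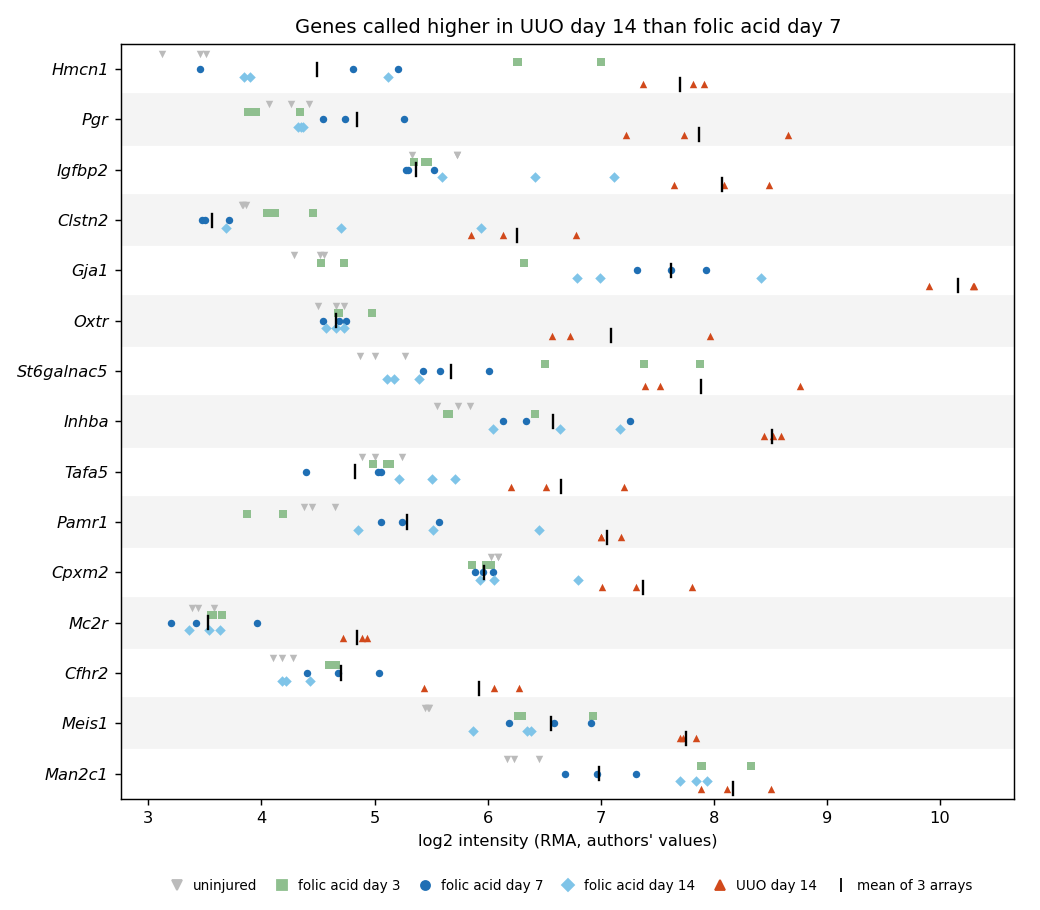
Log2 intensity (x axis) of the 15 genes called higher after obstruction (y axis) on each of the 15 arrays, coloured by group, with the means of the 3 folic acid day 7 and the 3 obstruction arrays marked. Pgr and Oxtr are high on the obstruction arrays alone, Hmcn1 and St6galnac5 also at folic acid day 3, and Man2c1 also at folic acid days 3 and 14.

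The other higher genes encode membrane and intracellular proteins. Gja1 encodes a connexin, the protein from which gap junctions between neighbouring cells are built. Gja1 read 7.93, 7.32 and 7.62 at folic acid day 7 and 9.90, 10.30 and 10.29 after obstruction, against 4.29 to 4.55 in uninjured kidney. Both injured groups thus lay above uninjured kidney, and obstruction higher still. The difference was 2.54 (SE 0.46, 5.80-fold), but its adjusted p of 0.0475 was close to the threshold. It rose to as much as 0.156 in the 11 omissions that ended the call. Other Gja1 probe sets differed by 0.43 to 3.04 (adjusted p of 0.247 to 0.698), and the mean by 2.18 (adjusted p = 0.152). The call also ended without a filter (adjusted p = 0.0674) and with trended and robust variances. Clstn2, a cadherin-related protein known from synapses, read 3.50, 3.71 and 3.47 against 6.14, 5.85 and 6.78 (difference 2.69, adjusted p = 0.0261), with folic acid day 14 arrays from 3.69 to 5.94. All 3 day 7 arrays were below the 40th percentile, so the size is uncertain. Without a filter the adjusted p of Clstn2 was 0.0384, and a second probe set differed by 0.03 (adjusted p = 0.984), the mean of both by 1.36 (adjusted p = 0.0222). St6galnac5, a sialyltransferase of gangliosides, read 5.43, 6.01 and 5.58 against 7.39, 7.52 and 8.76 (difference 2.22, adjusted p = 0.0304), and 6.51 to 7.88 at folic acid day 3. Meis1, a homeobox factor of stromal cells, read 6.19, 6.59 and 6.91 against 7.73, 7.70 and 7.84 (difference 1.19, adjusted p = 0.0453). Without a filter the adjusted p of Meis1 was 0.0516. A second Meis1 probe set differed by 0.48 (adjusted p = 0.753), and the mean of both by 0.84 (adjusted p = 0.167). The Clstn2, St6galnac5 and Meis1 calls ended in 7, 8 and 11 omissions. Man2c1, a cytosolic mannosidase, read 6.68 to 7.31 against 7.89 to 8.51 (difference 1.19, adjusted p = 0.0316). Its folic acid day 3 and day 14 arrays read 7.70 to 8.33, so for this gene folic acid day 7 and uninjured kidney (6.17 to 6.45) were the low groups. The mean of the Man2c1 probe sets differed by 0.70 (adjusted p = 0.0897).

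Promoters of Hmcn1 and Gja1 are shown because Hmcn1 had the greatest difference among the higher genes and Gja1 holds an AP-1 motif next to its start, and those of H2-Aa and H2-Eb1 because both are class II genes called lower. The sequences are from RefSeq on GRCm38.p6 and run 5′ to 3′ toward the gene, each 120 bases long and ending just before its start site. Capitals mark a searched motif, CTGATTGG (the Y box of class II promoters, which holds a CCAAT box read on the other strand) or TGANTCA (AP-1), on either strand.
Hmcn1, chr1:150993436-150993555, minus strand: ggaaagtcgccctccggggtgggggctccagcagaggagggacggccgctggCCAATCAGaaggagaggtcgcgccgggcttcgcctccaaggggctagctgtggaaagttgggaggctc
Gja1, chr10:56377180-56377299, plus strand: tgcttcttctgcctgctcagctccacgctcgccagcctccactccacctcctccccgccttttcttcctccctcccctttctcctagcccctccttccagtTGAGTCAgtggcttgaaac
H2-Aa, chr17:34287824-34287943, minus strand: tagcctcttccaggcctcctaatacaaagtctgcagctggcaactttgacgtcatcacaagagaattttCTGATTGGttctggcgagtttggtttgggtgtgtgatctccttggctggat
H2-Eb1, chr17:34305747-34305866, plus strand: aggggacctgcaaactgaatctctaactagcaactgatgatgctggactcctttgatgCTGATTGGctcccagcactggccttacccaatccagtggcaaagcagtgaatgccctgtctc
The motif began 68 bases before the start in Hmcn1, 19 in Gja1, 51 in H2-Aa and 62 in H2-Eb1. Hmcn1, a gene that was higher, thus carries the same 8 letters as the 2 class II genes, on the other strand. In the 250 bases before the start, CTGATTGG was in 7.14% of 14 promoters of the higher genes, 10.5% of 19 promoters of the lower genes and 4.64% of 13688 promoters of tested genes. TGANTCA was in 21.4%, 10.5% and 5.05%, and CCAAT in 21.4%, 57.9% and 34.5%. TATAAA was in 14.3%, 26.3% and 7.74%, GGAATG (TEAD) in 14.3%, 5.26% and 11.5%, and GTTAAT (HNF1) in 7.14%, 10.5% and 4.42%. Among all 32851 promoters of the table the shares were 3.83% for CTGATTGG, 6.75% for TGANTCA, 33.8% for CCAAT, 12.4% for TATAAA, 12.6% for GGAATG and 6.43% for GTTAAT. Entries were found for 12 of the 15 higher and 18 of the 22 lower genes, and CTGATTGG was added after the sequences had been seen. These shares describe letters in the sequence and were not tested.

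Matrix genes lay mostly above 0 without passing the test. No member of the collagen list was called, although 15 of its 16 tested members were above 0 with a median of 0.58, and 11 had groups that did not overlap (background 5.67%). Col1a1, the main chain of fibrillar collagen, read 11.70, 12.02 and 11.78 at folic acid day 7 and 12.50, 12.10 and 12.08 after obstruction, against 6.72 to 6.86 in uninjured kidney. Both models thus had a very high level, and the difference between them was 0.39 (SE 0.22, adjusted p = 0.645). Col3a1 read 11.62 to 11.91 against 12.19 to 12.27 (difference 0.43, adjusted p = 0.832). Col8a2, a short-chain collagen, read 5.83, 5.63 and 5.69 against 7.34, 6.35 and 7.42 (difference 1.32, SE 0.27, adjusted p = 0.0785). Col1a2 differed by 1.43 (adjusted p = 0.0841), on a probe set that read only 3.81 to 4.90 at folic acid day 7, at or below the array medians.

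Enzymes that hydroxylate, cleave and crosslink collagen showed the same pattern. Of 14 tested, 13 were above 0, the median was 0.46, 5 had groups that did not overlap (background 5.67%) and none was called. P4ha3, a catalytic subunit of collagen prolyl hydroxylase, read 6.50, 5.75 and 5.53 against 8.07, 7.56 and 8.50, the widest gap of this list (difference 2.12, SE 0.47, adjusted p = 0.107). P4ha2 differed by 0.57 (adjusted p = 0.375). Among 16 matricellular proteins 14 were above 0, with a median of 0.58 and 6 not overlapping (background 5.67%). Thbs4, a thrombospondin, read 5.63, 5.24 and 5.03 against 5.92, 7.53 and 6.84 (difference 1.46, adjusted p = 0.0909), and Vcan, a large proteoglycan, differed by 1.54 (adjusted p = 0.168). Postn, which binds collagen in injured tissue, read 7.84, 7.79 and 5.51 against 11.09, 8.79 and 7.74. Its groups overlapped and its SE was 0.85, so that a difference of 2.16 had an adjusted p of 0.446. Fn1 (fibronectin) differed by 0.54 (adjusted p = 0.689) and Tnc (tenascin-C) by 0.55 (adjusted p = 0.854).

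The other matrix lists had medians nearer 0. The 7 small leucine-rich proteoglycans had a median of 0.10, with Fmod at 0.69 (adjusted p = 0.169) and Lum at 2.47 (adjusted p = 0.205). Lum read 4.80, 7.61 and 4.23 at folic acid day 7, where array 2 stood far above its group, and 8.52, 7.75 and 7.76 after obstruction. The 14 elastic fibre genes had a median of 0.15, with Efemp1 at 2.41 (adjusted p = 0.155) and Ltbp1 at 1.46 (adjusted p = 0.243). Among 22 matrix proteases and inhibitors the median was 0.37, with Adamts4 at 1.71 (adjusted p = 0.107) and Mmp9 at -0.60 (adjusted p = 0.171). Timp1, an inhibitor of metalloproteinases, read 9.62 to 10.70 against 9.15 to 9.65 (difference -0.68, adjusted p = 0.645). Basement membrane genes had a median of -0.08 over 14, with Agrn at -0.85 (adjusted p = 0.16) and Col18a1 at -0.82 (adjusted p = 0.346). In the 12 cartilage and tendon genes, Matn2 differed by 1.41 (adjusted p = 0.25) and Chodl by 0.62 (adjusted p = 0.441). None of these lists held a called gene.

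**Figure D4:**
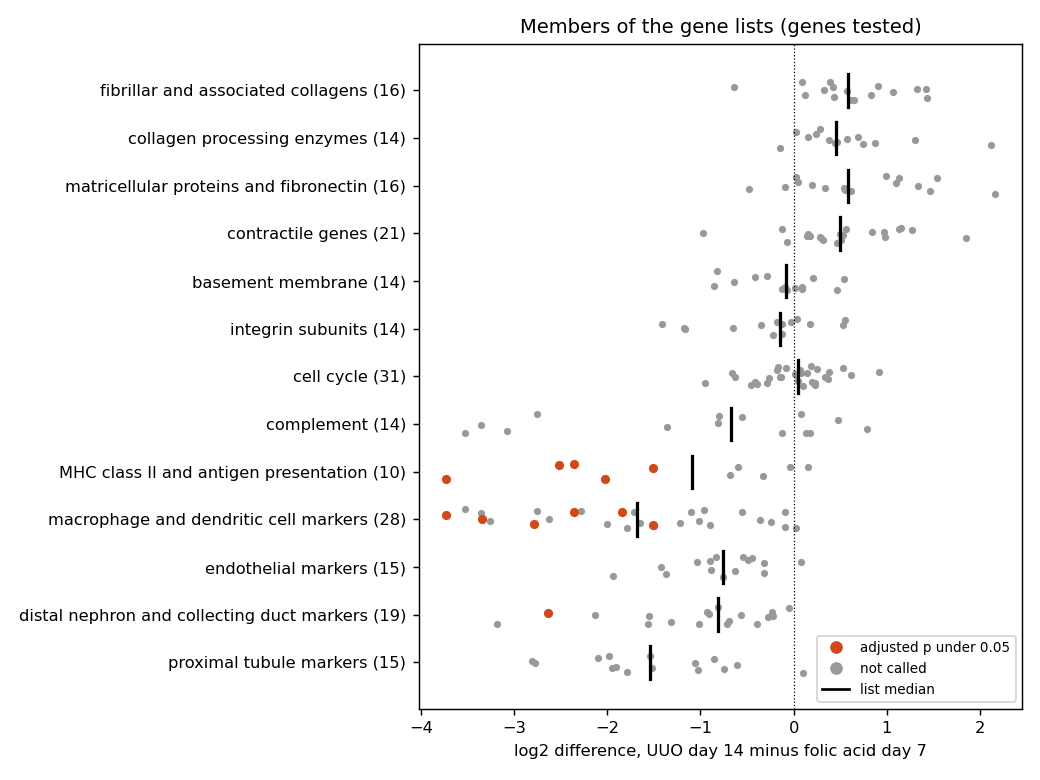
Log2 difference, obstruction day 14 minus folic acid day 7 (x axis), of each tested member of 13 of the gene lists (y axis, number tested in brackets), with called genes coloured and the list median as a line. The collagen list has 15 of 16 members above 0 without a call, and the called members of the MHC class II and macrophage lists all lie below 0.

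Contractile genes of the myofibroblast state had a median of 0.50, with 18 of 21 above 0, 8 not overlapping higher (background 5.67%) and 1 lower (background 6.53%), and no call. Acta2, smooth muscle actin, read 11.13, 11.10 and 10.92 at folic acid day 7 and 12.15, 11.94 and 11.97 after obstruction. The arrays within each group were very close and the groups did not overlap. The difference of 0.97 (SE 0.23) had an adjusted p of 0.145. Its SE pools the spread of all 5 groups, and the folic acid day 14 arrays ran from 10.07 to 11.26. Acta2 was as high at folic acid day 3 (11.97 to 12.18) as after obstruction, and 8.16 to 8.39 in uninjured kidney. Actg2, an actin of enteric smooth muscle, read 7.03, 4.41 and 6.26 after obstruction and 3.72 to 4.34 after folic acid (difference 1.85, adjusted p = 0.172). Integrin subunits had a median of -0.15 over 14, with Itga6 at -1.18 (adjusted p = 0.23) and Itgb6 at -1.41 (adjusted p = 0.366).

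The lists of growth factor pathways and stromal transcription factors held 1 called gene each, beside 0.111% of all genes called higher. In the TGF-beta and activin list it was Inhba, 1 of 19 (5.26%), and the list's median was 0.01. Tgfb3, a ligand, differed by -1.23 (adjusted p = 0.23). In the list of PDGF, FGF and IGF genes it was Igfbp2, 1 of 22 (4.55%), with a median of -0.05. Pdgfrl, a receptor-like protein without a kinase, read 6.44, 7.35 and 6.38 against 8.04, 7.95 and 7.96 (difference 1.26, adjusted p = 0.0858), and Igfbp5 differed by -1.71 (adjusted p = 0.364). Among the stromal transcription factors it was Meis1, 1 of 28 (3.57%).

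The Wnt list held 1 called gene of 23 (4.35%, against 0.163% of all genes called lower). Nkd2, which restrains Wnt signalling by binding Dishevelled, read 9.33, 10.26 and 9.37 at folic acid day 7 and 8.42, 7.97 and 7.81 after obstruction. Its mean was 7.71 at folic acid day 14, 6.37 at day 3 and 5.81 in uninjured kidney. Folic acid day 7 was thus the highest of the 5 groups for Nkd2. The difference was -1.58 (SE 0.26, adjusted p = 0.0296, limma), and 7 omissions ended the call. Other Nkd2 probe sets differed by -0.23 (adjusted p = 0.949) and -0.10 (adjusted p = 0.912), and the mean by -0.64 (adjusted p = 0.326). Wnt5a, a ligand of the non-canonical branch, read 6.02, 6.50 and 6.14 against 8.02, 8.77 and 7.80 (difference 1.98, SE 0.43, adjusted p = 0.101). Sfrp2, a secreted antagonist, differed by -1.95 (adjusted p = 0.256).

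Genes of MHC class II antigen presentation were lower after obstruction. Of 10 tested, 5 were called lower (50%, against 0.163% of all genes), the median was -1.10 and 6 had groups that did not overlap (background 6.53%). H2-Ab1, the beta chain of I-A, read 9.39, 9.41 and 8.78 at folic acid day 7 and 6.77, 6.63 and 6.63 after obstruction (difference -2.52, SE 0.35, adjusted p = 0.0101). H2-Aa, its alpha chain, read 10.72, 10.80 and 10.74 against 8.99, 9.09 and 9.64 (difference -1.51, SE 0.17, adjusted p = 0.0037). H2-Eb1, the beta chain of I-E, read 9.55, 9.81 and 9.41 against 7.45, 7.64 and 7.61 (difference -2.02, SE 0.20, adjusted p = 0.00214). On the probe sets used, these 3 class II chains were thus all lower, with groups far apart relative to the spread among arrays. Other H2-Ab1 probe sets differed less, by -1.24 (adjusted p = 0.394) and -1.85 (adjusted p = 0.143). The mean of the H2-Ab1 probe sets differed by -1.87 and was not called (adjusted p = 0.0596). Cd74, the invariant chain that guides class II molecules to the endosome, read 10.27, 10.08 and 9.84 against 7.77, 8.32 and 7.00 (difference -2.36, SE 0.30, adjusted p = 0.00805). Ctss, the protease that removes the invariant chain, read 9.70, 10.88 and 11.20 against 6.76, 6.36 and 7.46. Its difference of -3.73 (SE 0.51, 13.3-fold lower, adjusted p = 0.0101) was the greatest in size of all tested genes.

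The class II genes were not at the uninjured level after obstruction. H2-Aa read 6.45 to 6.81 in uninjured kidney and H2-Eb1 6.60 to 6.72, both below every obstruction array. At folic acid day 14 both were as high as at day 7 (means of 11.02 and 10.19). At folic acid day 3, by contrast, H2-Aa read 7.11 to 7.29 and H2-Eb1 5.99 to 6.58, also below every obstruction array. Ciita, the activator of class II transcription, read 4.92 to 5.09 against 5.02 to 5.41 (difference 0.15, adjusted p = 0.813), near the array medians. H2-DMa and H2-DMb1, which load peptides, differed by -0.60 (adjusted p = 0.643) and -0.68 (adjusted p = 0.749). Without folic acid day 7 array 2, or without obstruction array 2, 3 of the 10 genes were called in place of 5, since H2-Ab1 and Ctss then missed the threshold.

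Macrophage markers moved in the same direction. Of 28 tested, 6 were called lower (21.4%, against 0.163% of all genes), the median was -1.68, 20 had groups that did not overlap (background 6.53%) and 1 (Gpnmb, at 0.02) was above 0. Among the called, 3 (Ctss, Cd74 and H2-Aa) are also in the class II list. Tyrobp, the adaptor of myeloid activating receptors, read 9.00, 10.38 and 10.20 against 7.00, 5.68 and 6.89 (difference -3.34, SE 0.55, adjusted p = 0.0304). Lyz2, the lysozyme of myeloid cells, read 10.11, 10.41 and 10.66 against 7.30, 7.93 and 7.57 (difference -2.79, adjusted p = 0.0454), though a closely similar lysozyme gene may share its probes. The Lyz2 call ended in 12 omissions and without the filter (adjusted p = 0.0653). Laptm5, a lysosomal membrane protein of blood cells, differed by -1.84 (adjusted p = 0.0212), or by -1.49 as the mean of its probe sets (adjusted p = 0.0596). The C1q subunits of complement, which macrophages make, did not pass the test. C1qc read 8.71, 10.34 and 10.14 against 5.58, 6.38 and 6.63 (difference -3.53, adjusted p = 0.0534), C1qb differed by -3.35 (adjusted p = 0.0653) and C1qa by -2.75 (adjusted p = 0.104). The receptor Adgre1 read 6.40, 6.28 and 6.41 against 4.65, 4.55 and 4.92 (difference -1.65, adjusted p = 0.175). The macrophage count was 2 without folic acid day 7 array 2 or obstruction array 2, and at most 10, without folic acid day 14 array 1 or 2.

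Other lower genes of immune cells lay outside the lists. Ly86, the partner of the B cell and myeloid receptor CD180, read 8.29, 8.78 and 8.74 against 5.52, 4.95 and 5.31 (difference -3.34, SE 0.39, 10.1-fold lower, adjusted p = 0.0037). Cd52, a surface glycoprotein of leukocytes, read 7.79, 9.04 and 8.16 against 6.01, 5.37 and 5.59 (difference -2.67, adjusted p = 0.0249). Ccl9, a chemokine, differed by -2.56 (adjusted p = 0.0439), or by -1.57 as the mean of its probe sets (adjusted p = 0.162). The Ccl9 call ended in 12 omissions and without the filter (adjusted p = 0.0621). Bcl2a1a, of a family of near-identical survival genes that the probes may not separate, differed by -2.07 (adjusted p = 0.0316). Fcrls and Stab1, receptor genes of macrophages, differed by -1.85 and -1.75 (adjusted p = 0.0296 for each). F13a1, the A chain of coagulation factor XIII, read 5.44, 7.78 and 8.94 at folic acid day 7 and 3.94 to 4.29 after obstruction, where no array exceeded its own 40th percentile. Its day 7 arrays were far apart, and every other group was low (3.77 to 4.56). F13a1 was tested only because of the day 7 arrays, and its difference of -3.30 (adjusted p = 0.0484) was not called without the filter (adjusted p = 0.0695) or in 13 of the 15 omissions, so its size is uncertain.

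The macrophage signal differed between the groups together with these calls. Of its 30 markers, 27 to 29 exceeded the 40th percentile on the folic acid day 7 arrays and 25 to 27 on the obstruction arrays. With the mean of the macrophage list as a covariate in the limma fit, 3 of the 37 genes were still called, Hmcn1 (4.79), Klk1 (-5.22) and Meis1 (2.10), and 16 others joined them. H2-Eb1 was then at -1.34 (adjusted p = 0.146), Ly86 at -1.66 (adjusted p = 0.259), and Pgr at 2.62 (adjusted p = 0.119). This covariate separates the compared groups without overlap and is built in part from called genes, so the adjusted values extrapolate.

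**Figure D5:**
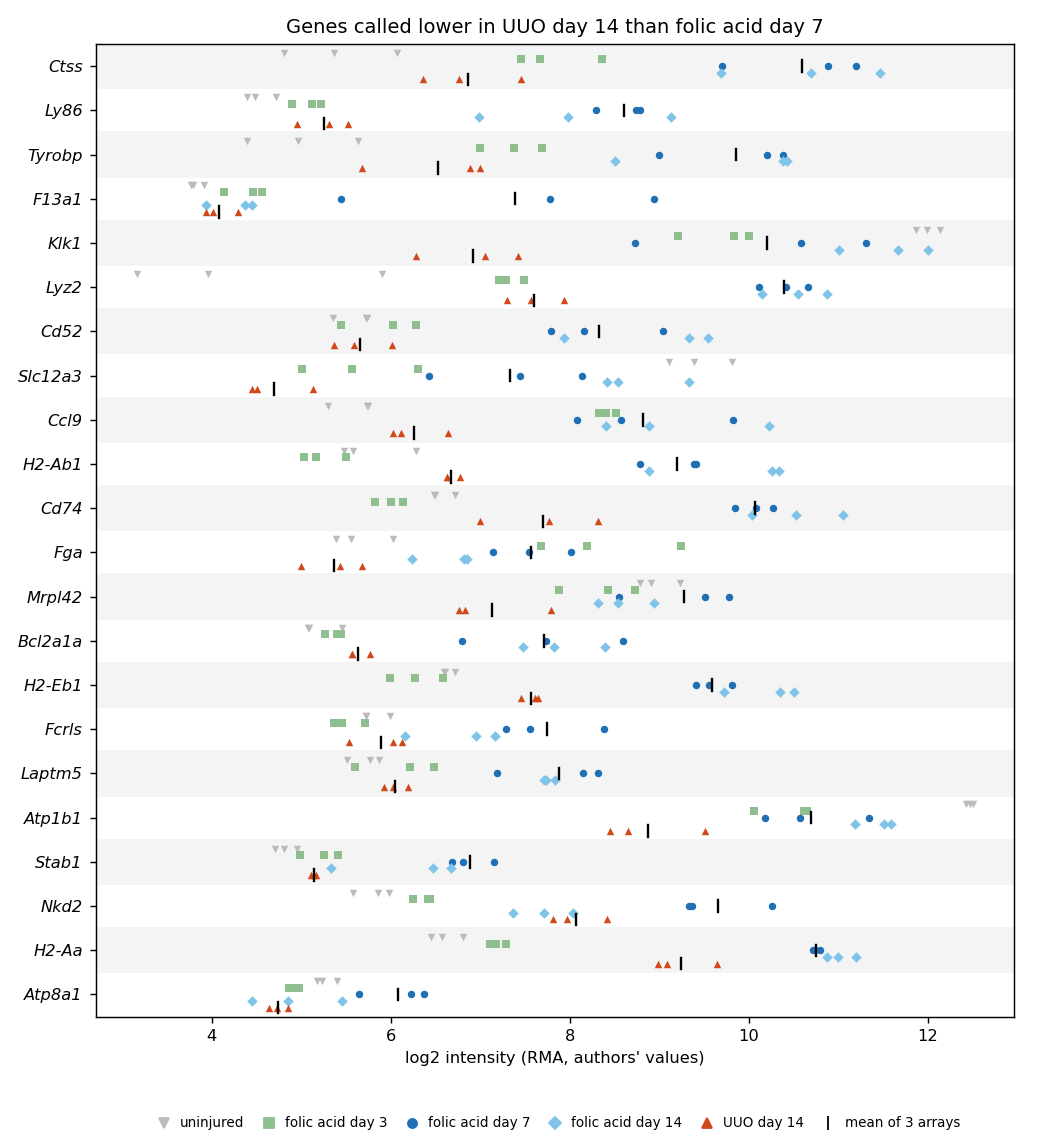
Log2 intensity (x axis) of the 22 genes called lower after obstruction (y axis) on each of the 15 arrays, coloured by group, with the means of the 3 folic acid day 7 and the 3 obstruction arrays marked. The class II genes H2-Aa and H2-Eb1 have tight day 7 values (10.72 to 10.80 and 9.41 to 9.81), whereas F13a1 spreads from 5.44 to 8.94 at day 7.

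Complement genes as a list had no call. The median over 14 was -0.68, with 6 not overlapping lower (background 6.53%) and 1 higher (background 5.67%). Cfp (properdin), which stabilises the alternative pathway convertase, read 6.57, 7.48 and 7.08 against 5.81, 5.84 and 5.41 (difference -1.36, adjusted p = 0.0534). Chemokines and cytokines had a median of -0.35 over 22, and only Cxcl12, at 1.62 (adjusted p = 0.16), had groups that did not overlap in the higher direction. Ccl2, a monocyte attractant, read 5.27, 7.85 and 6.45 against 6.32, 5.85 and 5.27 (difference -0.71, adjusted p = 0.793). Interferon response genes had a median of -0.13 over 18, with Rsad2 at -1.11 (adjusted p = 0.268).

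Of the lower genes, 3 are known from tubules, and 1 of them, Slc12a3, is in a tubular list. Klk1, tissue kallikrein of the distal tubule, read 11.31, 10.58 and 8.73 at folic acid day 7 and 7.42, 7.05 and 6.28 after obstruction. In uninjured kidney it read 11.87 to 12.13 and at folic acid day 14 11.01 to 12.00, so obstruction was the lowest group. The difference was -3.29 (SE 0.53, 9.78-fold lower, adjusted p = 0.0296), on a gene of a family with closely similar copies. Other Klk1 probe sets differed by -3.41 (adjusted p = 0.0462) and 0.06 (adjusted p = 0.981), and the mean by -2.21 (adjusted p = 0.0158). Slc12a3, the thiazide-sensitive sodium chloride cotransporter of the distal convoluted tubule, read 7.44, 8.14 and 6.43 against 5.13, 4.51 and 4.45 (difference -2.64, SE 0.43, adjusted p = 0.0296), with 9.11 to 9.81 in uninjured kidney and -1.57 for the mean of its probe sets (adjusted p = 0.0161). Atp1b1, the beta subunit of the sodium pump, abundant in tubules, read 11.34, 10.57 and 10.18 against 9.51, 8.45 and 8.65 (difference -1.83, adjusted p = 0.0316). The Klk1, Slc12a3 and Atp1b1 calls ended in 7, 8 and 9 omissions, among them folic acid day 7 arrays 1 and 2 for each.

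Slc12a3 was the only call among 19 distal nephron genes (5.26%, against 0.163% of all genes called lower), all of which were below 0 with a median of -0.81. Calb1, the calcium-binding protein of the same segment, read 8.77, 8.76 and 6.46 against 4.62, 3.83 and 6.02 (difference -3.18, adjusted p = 0.0559). The 15 proximal tubule genes had a median of -1.54 and no call, with wide spread at day 7. Slc27a2, a fatty acid transporter of this segment, read 10.40, 8.42 and 6.45 against 6.77, 5.15 and 4.95 (difference -2.81, SE 0.90, adjusted p = 0.301). Slc5a12, a lactate transporter, differed by -2.10 (adjusted p = 0.478). Among injured and simple epithelium genes, Havcr1 (kidney injury molecule) differed by -2.93 (adjusted p = 0.243) and Cdh1 by -1.55 (adjusted p = 0.34). With the mean of the proximal tubule list as a covariate, Klk1 differed by -2.43 (adjusted p = 0.0266) and Slc12a3 by -2.27 (adjusted p = 0.10). In that fit H2-Eb1 (-2.12, adjusted p = 0.00401) and Igfbp2 (2.80, adjusted p = 0.0102) were called. Gja1 (2.21, adjusted p = 0.137), Inhba (1.70, adjusted p = 0.104) and Nkd2 (-1.67, adjusted p = 0.0512) were not. Pgr was called too (3.16, adjusted p = 0.00401), but it passed the filter only by counting the obstruction arrays, so its call here is no support. The covariate was 8.29 and 6.66 on folic acid day 7 arrays 1 and 2, above the obstruction arrays (5.20 to 5.56). Only array 3, at 5.27, lay within their range, so the adjusted values partly extrapolate. Calls made or missed in this fit do not show the part of tubular RNA, which was not tested.

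Endothelial genes were mostly below 0 without a call. Of 15 tested, 1 (Ramp2, at 0.08) was above 0, and 11 had groups that did not overlap, all lower after obstruction (background 6.53%), with a median of -0.76. Plvap, a protein of fenestrated endothelium, read 8.46, 8.53 and 8.41 against 5.51, 6.57 and 7.48 (difference -1.94, adjusted p = 0.148). Sox17, an arterial factor, differed by -1.42 (adjusted p = 0.114). The mean over 16 endothelial markers was 6.93 to 7.48 at day 7 and 6.22 to 6.62 after obstruction. As summed linear intensity, however, the groups overlapped, at 8600 to 12100 against 8670 to 9490. The 7 podocyte genes had a median of -0.28, with Clic5 at -1.16 (adjusted p = 0.148) and Podxl at -0.99 (adjusted p = 0.336). The 10 pericyte and smooth muscle markers had a median of -0.16, with Notch3 at -1.09 (adjusted p = 0.149) and Des at -0.97 (adjusted p = 0.353). Among fibroblast markers Cd34 differed by -1.86 (adjusted p = 0.201).

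The last called genes fell in no list. Fga, a chain of fibrinogen, read 7.55, 8.01 and 7.14 against 5.43, 5.00 and 5.68 (difference -2.20, adjusted p = 0.0304), and 7.68 to 9.24 at folic acid day 3. Mrpl42, of the mitochondrial ribosome, differed by -2.16 (adjusted p = 0.0296), with 0.02 on a second probe set (adjusted p = 0.981) and -1.07 for their mean (adjusted p = 0.0516). Atp8a1, a lipid flippase, read 6.37, 6.23 and 5.65 against 4.73, 4.64 and 4.85 (difference -1.34, adjusted p = 0.0369). The calls of Fga, Mrpl42 and Atp8a1 ended in 9, 8 and 12 omissions.

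Proliferation, stress and metabolism showed no called gene. The 31 cell cycle genes had a median of 0.05. Mki67, a marker of cycling cells, read 6.91, 6.80 and 7.51 against 8.43, 5.81 and 5.60, with obstruction array 1 apart from its group (difference -0.46, SE 0.75, adjusted p = 0.917). Ccnd1, cyclin D1, read 7.30, 6.94 and 6.65 against 5.89, 6.09 and 6.07 (difference -0.95, SE 0.18, adjusted p = 0.0521). Medians within 0.20 of 0 and no call were found, among others, for the lists of BMP, hedgehog, retinoid, Notch, hypoxia, unfolded protein response, immediate early, p53 and Hox genes. In these lists, Bmpr1b, a BMP receptor, differed by 1.28 (adjusted p = 0.0865) and Hif1a by 1.22 (adjusted p = 0.148), and Myc by -1.12 (adjusted p = 0.148). Gas1 of the hedgehog list differed by 0.80 (adjusted p = 0.502), Rarg of the retinoid list by 0.65 (adjusted p = 0.378), Hoxd9 by -0.84 (adjusted p = 0.463), Mdm2 by -0.56 (adjusted p = 0.778) and Calr by -0.58 (adjusted p = 0.518). The 12 YAP and TAZ targets had a median of 0.34, with Wwtr1 at 0.76 (adjusted p = 0.397). Oxidative stress defence genes had a median of -0.29 over 16, with Txn1 at -0.59 (adjusted p = 0.268), and fatty acid oxidation genes -0.47 over 15, with Cpt1a at -0.78 (adjusted p = 0.423). Lymphocyte, neutrophil and erythroid markers had medians of 0.02, -0.18 and 0.09, with Cd8a at 0.33 (adjusted p = 0.645), Cxcr2 at -0.21 (adjusted p = 0.692) and Hba-a1 at 0.46 (adjusted p = 0.872). In all, 7 of the 42 lists held a called gene, and 13 of the 37 called genes were in a list.

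The same obstruction arrays can be set against folic acid day 14, and the 2 later times after folic acid against each other. These comparisons share arrays with the one above, and each is given only by its own values. Obstruction against folic acid day 14 gave 410 called genes (3.03%), 173 higher (1.28%) and 237 lower (1.75%). Folic acid day 14 against day 7 gave 7 (0.0518%), 1 higher (0.00739%) and 6 lower (0.0444%). For Pgr the differences were 3.53 against folic acid day 14 (adjusted p = 0.000323) and -0.50 between the folic acid days (adjusted p = 0.675). For H2-Eb1 they were -2.62 (adjusted p = 0.000229) and 0.60 (adjusted p = 0.403), and for Klk1 -4.64 (adjusted p = 0.00164) and 1.35 (adjusted p = 0.467). Acta2 differed by 1.31 (adjusted p = 0.0117) and Col1a1 by 1.05 (adjusted p = 0.0254) from folic acid day 14, with -0.34 (adjusted p = 0.717) and -0.66 (adjusted p = 0.393) between the folic acid days. Nkd2 differed by 0.36 from folic acid day 14 (adjusted p = 0.557) and by -1.95 between folic acid day 14 and day 7 (adjusted p = 0.0268). F13a1 differed by -0.17 (adjusted p = 0.944) and -3.13 (adjusted p = 0.11), and Atp8a1 by -0.18 (adjusted p = 0.80) and -1.16 (adjusted p = 0.112), so that for both the day 7 arrays were the high ones.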

How the data were processed

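RNA of sorted kidney cells had been amplified, labelled with biotin and hybridised to Affymetrix mouse arrays, per the labels. The deposited log2 intensities had been made by the authors with RMA, and affy and limma are named in the submitters' processing notes, with no versions given there. Of 45141 probe sets, 28898 named 1 gene in the platform annotation, 551 several and 15692 none. Genes above their array's 40th percentile on at least 3 of 15 arrays were tested. All 5 groups were fitted with limma 3.58.1 in R 4.3.3 (10 residual degrees of freedom, median SE 0.27), and p-values were Benjamini-Hochberg adjusted over the 13523 genes. Every adjusted p in the text is from limma. For other probe sets of a gene it comes from a separate fit of all 28898 single-gene probe sets without the filter, adjusted over those. Each alternative fit was adjusted over the genes it tested.

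Groups were taken from the sample titles; array numbers 1 to 3 follow the order of the records and pair nothing. The number of arrays limits the precision. On simulated data with 13523 genes, 42% of genes changed by 1 on the log2 scale and 87% of those changed by 2 were recovered, with 5 false calls. Members and lists were chosen with earlier results of these data known. Named genes were the 12 greatest differences in each direction among called genes, 11 fixed fibroblast genes, and up to 4 called members of each list, or else the 2 with the smallest p. The remaining called genes, and other list members with values, were added after their values were seen. Promoters (RefSeq, GRCm38.p6) were matched by Entrez gene identifier for the shares, and by symbol for the sequences shown. Alternatives were other normalizations, filters, error models, probe set rules, covariates and omissions of arrays. Figures were drawn with matplotlib 3.10.9.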

Additional observations from a re-analysis of the deposited data

How the results depend on the processing

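The count of 37 called genes (15 higher, 22 lower) was 42 after quantile normalization, 39 after median centring, 34 with trended and robust variances, 45 with array weights, 32 without the filter on dim genes, 49 with a filter at the 60th percentile and 32 with the mean of each gene's probe sets, and 26 to 37 of the 37 genes were called in each of these. It was 0 (0 higher, 0 lower) with only the 6 arrays compared, where fewer arrays give the error, and 8 (4 higher, 4 lower) at an adjusted p under 0.01. With the proximal tubule mean as covariate it was 43 (7 higher, 36 lower), and 21 of the 37 were among them. With the macrophage mean it was 19 (7 higher, 12 lower), and 3 were among them. With 1 array left out the totals ran from 13 to 108, the higher from 6 to 30 and the lower from 5 to 78. Among the named genes signs turned only where no call was made: with the proximal tubule covariate Pdgfra (-0.37), Col3a1 (-0.08), Tnc (-0.05) and Slc4a1 (0.11); with the macrophage covariate Pdgfrb (0.88), Timp1 (1.16), Ccl2 (0.77), Col18a1 (0.37), Ccl8 (1.55), Irf8 (1.46), Cdkn1b (-0.10), Mdm2 (1.12), Cxcr2 (0.10) and Hba-a1 (-0.17); with the mean of probe sets Cdkn1b (-0.02); and with 1 array left out Pdgfrb (-0.50 to 0.02) and Mki67 (-1.37 to 0.04). The causes were not tested. Leaving out arrays for the list counts was chosen after seeing the data. No paired analysis was possible because the groups share no replicate numbers in the labels. Probes near the array median, such as those of Mc2r and Col1a2, limit what can be measured for dim genes.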

Other observations

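Of 8559 tested probe sets without a gene in the annotation, 14 were called when all 30217 tested probe sets were fitted together, 7 of them higher after obstruction, and their identity was not analysed here. Among the 37 called genes, 21 had another probe set, of which 4 genes (Cpxm2, H2-Aa, Klk1 and St6galnac5) were called the same way on it and 0 the opposite way. For 11 of these 21 genes, the mean over the gene's probe sets was more than 1.5 times smaller in size than the value of the probe set used. For Atp8a1, also among the 21, the mean was not tested.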
